A study of Mus musculus with 10 samples.

Results

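The genes described here encode the proteins of the cytosolic ribosome. They were chosen by name, as Ensembl genes listed in GENCODE M21 as protein coding under mouse symbols Rpl, Rps, Rplp0 to Rplp2 and Rpsa. The naming rule uses no measured value, but the members were chosen with earlier results of these data known. The rule found 81 of the 49671 gene identifiers, 50 of the large subunit and 31 of the small subunit. Ribosomal proteins and ribosomal RNA together form the particle that makes every protein of the cell. The proteins are needed in equal amounts, and their genes are among the most strongly transcribed in growing cells. Their mRNAs start with a run of pyrimidines, the terminal oligopyrimidine tract, through which the growth kinase mTOR and the RNA-binding protein Larp1 control translation. The transcription factor Myc raises both their transcription and the assembly of ribosomes, so proliferating epithelium often makes more of them. Near-copies such as Rps27l and Rpl36al replace their partner in part of the ribosomes.

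RNA of mouse mammary gland cells, sorted by antibody staining, was sequenced in 10 libraries of 5 populations, with 2 libraries each. BC were basal cells and LC luminal cells without a treatment in their labels, WT being added to the label of replicate 2 of both. The 3 populations named for the red fluorescent reporter Tomato, which are TBC (Tomato basal cells), THC (Tomato hybrid cells) and TLC (Tomato luminal cells), all came from glands labelled with luminal cell ablation. The labels name no mouse strain, allele, driver of the reporter, ablating agent, age or number of animals, so ablation and Tomato marking cannot be told apart in any comparison with BC or LC. Whether replicates are separate animals is not stated, so p-values measure only the spread between these libraries, which may be technical. In bulk RNA, fewer cells of a type and less RNA per cell cannot be told apart.

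Counts assigned to genes ran from 2757773 (THC replicate 1) to 13685674 (LC replicate 2). Reads without a unique alignment were 43.0% in THC replicate 1 and 14.6% to 22.4% in the other libraries. In BC and LC the labelled lineages held against their markers, with 8 of 8 basal markers lower and 12 of 12 luminal markers higher in LC. TLC departed from LC in these markers, with 8 of 8 basal markers higher and 12 of 12 luminal markers lower. Of these, 3 basal markers were called higher and 3 luminal markers lower by edgeR (adjusted p under 0.05), against 4.46% and 3.77% of all tested genes. Markers of endothelial cells summed to 916 and 928 normalised counts (CPM, scaled to library size with TMM factors) in the THC libraries and to between 156 and 636 in the others. Those of fibroblasts and pericytes summed to 1316 and 2284 CPM in THC and to between 404 and 797 elsewhere. The replicate 1 libraries carry the numbers S44 to S48 in their titles and the replicate 2 libraries S80 to S84. The labels do not say what these numbers mark.

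Most of these genes were highly expressed. Enough counts for a test were found for 78 of the 81, with mean levels from 41.3 CPM (Rps27l) to 1309 CPM (Rpl4) and a median of 287 CPM, against 12.7 CPM over all tested genes. Of the 78, 72 had a mean over 100 CPM. The other 3 are paralogs. Rpl10l, a retrogene copy of Rpl10, had 0 counts in every library, which allows up to 0.202 CPM in THC replicate 2 and 1.16 CPM in THC replicate 1. Rpl39l had 10 counts over all libraries and Rpl3l, the striated muscle form of Rpl3, had 25. These limits of a count of 0 cover counting error only.

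Per kilobase of merged exons, the highest mean levels were 801 CPM for Rplp1, 741 for Rps15, 652 for Rpl4, 512 for Rpl32 and 503 for Rplp0. Rplp1 and Rplp0 form the acidic stalk of the large subunit, which binds the GTPases that drive translation. The lowest levels per kilobase were 19.0 CPM for Rpl34, 24.8 for Rpl35a, 38.3 for Rps15a, 41.4 for Rpl27 and 44.1 for Rpl30. Merged exons include retained introns, and by the length of the principal transcript Rpl35a stood at 169 CPM per kilobase. The order of the genes by level therefore depends on the transcript taken as the gene's length.

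Sequence near the starts of the genes on which the results turn is shown here as 30-base stretches of the sense strand, 5′ to 3′, in which capitals mark the letters CTTTC or CTTTTC, a pyrimidine run of the kind found at ribosomal protein starts. Each stretch was placed on the match where there is one and on the listed RefSeq start otherwise, so some do not contain that start. Counted from it, the stretch begins at -53 in Rps19 and -44 in Rps21, and at 21 in Rpl36a and 20 in Rpl36al. Rps19 has 3 listed starts and Rps21 and Rps27l have 2 each, and the stretch of 1 of them is shown. Another Rps19 start has no match. Rps19, Rps21, Rps12 and Rpl9 are among those with the lowest p-values in the comparisons of populations below. Rps27 with Rps27l and Rpl36a with Rpl36al are the pairs whose proportions are compared below. The sequences are RefSeq's for GRCm38.p6, at chr7:24884623-24884652 (+, Rps19), chr2:180257405-180257434 (+, Rps21), chr10:23787183-23787212 (-, Rps12), chr5:65391422-65391451 (-, Rpl9), chr3:90213630-90213659 (-, Rps27), chr9:66946066-66946095 (+, Rps27l), chrX:134585674-134585703 (+, Rpl36a) and chr12:69184019-69184048 (-, Rpl36al).
Rps19: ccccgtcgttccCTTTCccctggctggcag
Rps21: acgagctacttcCTTTCtgcgctctcgctg
Rps12: gccaccgccggcCTTTTCccctgccgccgc
Rpl9: gcgacacgcagggccctgacggattacaag
Rps27: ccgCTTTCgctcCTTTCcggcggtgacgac
Rps27l: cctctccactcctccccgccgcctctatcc
Rpl36a: gctctagcctctctCTTTCcgagctgctag
Rpl36al: ctctgttcgtccCTTTCctgttcggcgcgt
Of the 81 genes, 61 had at least 1 start in the RefSeq table, with 73 starts in all. CTTTC or CTTTTC stood on the sense strand within 50 bases of the start at 44 of these (60.3%), against 15.7% of all 32851 starts in the table. On the antisense strand the shares were 12.3% and 14.8%. The letters CGGAAG, the core of sites for ETS transcription factors, occurred on either strand of the 300-base window around 61.6% of the members' starts and 16.9% of all starts. Rpl9 and Rps27l have no CTTTC or CTTTTC on the sense strand within 50 bases of their listed starts, which says only that those letters are not there. On the antisense strand a match does occur within that distance for Rpl9 and for the Rps27l start shown.

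As a share of all gene counts, the 81 genes took up 2.96% ± 0.56 (SD, n = 2) in BC, 2.58% ± 0.20 in TBC, 2.51% ± 0.72 in THC, 2.46% ± 0.66 in TLC and 2.25% ± 0.08 in LC. For replicates 1 and 2 the shares were 3.36% and 2.57% (BC), 2.72% and 2.44% (TBC), 3.02% and 1.996% (THC), 2.92% and 1.996% (TLC), and 2.31% and 2.19% (LC). Both BC libraries lay above both LC libraries, while the ranges of THC and TLC reached from below LC to above TBC. Within each population the replicate 1 library held the larger share. Mitochondrial genes took up 0.924% to 2.90% of the gene counts. Like the ribosomal share, the mitochondrial share was larger in replicate 1 in BC, TBC, THC and LC, and larger in both BC libraries (2.86% and 1.70%) than in both LC libraries (1.57% and 1.38%). In TLC it was 0.924% in replicate 1 and 2.34% in replicate 2, opposite to the ribosomal share. Its part in the shares was not tested. Without the mitochondrial genes in the total, the ribosomal share was 3.04% in BC and 2.29% in LC. Of the reads assigned to a gene, to no gene, ambiguously or without a unique alignment, the members made up 1.51% ± 0.13 in BC and 1.24% ± 0.08 in LC.

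**Figure D1:**
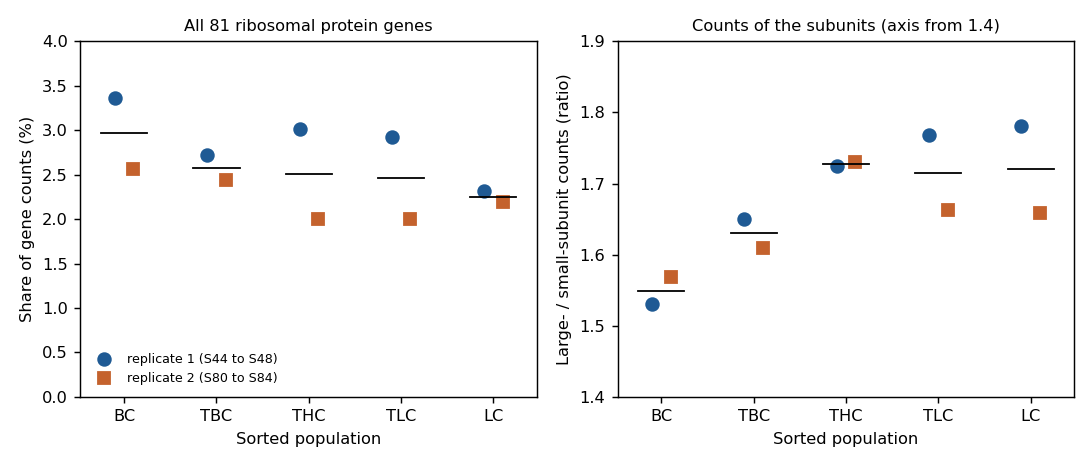
The left panel plots the summed counts of the 81 ribosomal protein genes as a percentage of all gene counts in each library, and the right panel the ratio of large-subunit to small-subunit counts on an axis that starts at 1.4. Circles are replicate 1, squares replicate 2 and lines the mean of 2 libraries; replicate 1 has the larger share in all 5 populations, and BC has the lowest subunit ratio.

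Counts of large-subunit genes exceeded those of small-subunit genes in every library, by a ratio that was lowest in BC, at 1.53 and 1.57. The ratio was 1.65 and 1.61 for TBC, 1.72 and 1.73 for THC, 1.77 and 1.66 for TLC, and 1.78 and 1.66 for LC. The BC libraries did not overlap with those of any other population in this ratio, which received no test. In log2 fold changes of LC against BC, the 47 tested large-subunit genes had a median of -0.38 and the 31 small-subunit genes a median of -0.56.

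LC and BC were compared to see how far the ribosomal protein genes differ between the lineages without ablation. Nearly all had lower values in LC, by a small amount. The edgeR log2 fold change was negative for 75 of 78 genes, with a median of -0.42 against -0.04 over all tested genes, and ran from -0.84 to 0.40. In 52 of 78 genes both LC libraries lay below both BC libraries, and in 2 both lay above. Over all tested genes 30.3% lay below and 30% above. The genes of a library shift together, so these counts are not independent observations. A single gene, Rps19, passed the test across 19757 genes, and it was lower in LC, against 24% of all tested genes called in this comparison and 12.5% called lower. At an unadjusted p under 0.05 there were 8 genes, all lower, and the 95% interval of 21 of 78 lay within a 2-fold change, against 24.7% of all genes. Of all tested genes 34.8% had an unadjusted p under 0.05. With a term in the fit for the set of library numbers (S44 to S48 or S80 to S84), 16 members were called lower and none higher, and 5828 of 19757 genes were called.

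In several other gene lists most genes also had negative log2 fold changes in LC vs BC. Of 11 RNA quality genes (mitochondrial and nuclear-retained transcripts), 9 were negative with a median of -0.63, and none was called. Their summed level was 34740 and 25976 CPM in BC and 22353 and 30481 CPM in LC, none of them at 0 in any library. Of 15 endothelial markers 14 were negative, with a median of -0.92 and 1 called lower, against 12.5% of all tested genes. They summed to 636 and 192 CPM in BC and 444 and 197 CPM in LC, which overlap. Of 14 fibroblast and pericyte markers 12 were negative. Of the 14, 5 were called lower, against 12.5% of all tested genes, and 1, Notch3, was called higher (2.87), against 11.5%. Their summed level went the other way, at 525 and 404 CPM in BC and 638 and 573 CPM in LC. Of 13 immune markers 9 were negative, with none called. The single erythrocyte marker of 7 with enough counts for a test was called in no comparison. The part of these genes in the ribosomal protein values was not tested.

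Rps19 (ENSMUSG00000040952, 7:24884371-24889806), a small-subunit protein needed to mature the small subunit and mutated in Diamond-Blackfan anaemia, stood at 325 and 246 CPM in BC and at 166 and 158 CPM in LC. Its level was 233 and 180 CPM in TBC, 244 and 147 CPM for THC and 210 and 173 CPM for TLC. Apart from THC replicate 2 the LC libraries were the lowest, and no LC library reached a BC library. The log2 fold change of LC against BC was -0.81 ± 0.27 (SE), with an edgeR adjusted p of 0.049. Counts of its 6 near-identical pseudogenes came to 12.5% of its own counts. The call was lost in 10 of 20 alternatives, among them pseudogene counts added (edgeR adjusted p 0.066) and leaving out either BC library or either LC library.

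The other 7 genes of low unadjusted p missed the threshold after adjustment. Rps12, the small-subunit protein whose start is shown above, stood at 398 and 336 CPM in BC against 206 and 217 in LC (log2 fold change -0.79 ± 0.27, edgeR adjusted p 0.053). Rpl9 (ENSMUSG00000047215, 5:65388364-65391444), of the large subunit, stood at 464 and 335 CPM in BC against 203 and 244 in LC (-0.84 ± 0.29, edgeR adjusted p 0.057). In all 7 the LC libraries lay below the BC libraries. Rps21, a small protein of the small subunit, stood at 224 and 153 CPM in BC and 105 and 112 in LC (-0.80 ± 0.30, edgeR adjusted p 0.078). Rps27a, which is made as a fusion with ubiquitin, stood at 546 and 390 CPM in BC and 249 and 319 in LC (-0.72 ± 0.30, edgeR adjusted p 0.10). Rps3, which lines the mRNA entry channel, Rps14, which lies at the mRNA exit channel and is lost in 5q- myelodysplasia, and Rps25, used in initiation at viral entry sites, had log2 fold changes of -0.73, -0.68 and -0.70. Of these 8 genes 7 belong to the small subunit, which holds 31 of the 78 tested, and this was not tested.

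The remaining members fixed for description had smaller differences between LC and BC. Rpl3 at the peptidyl transferase centre (-0.38), Rpl10a (-0.40), Rpl22 (-0.26), Rpl38 (-0.46), needed for translation of Hox mRNAs, Rplp0 of the stalk (-0.14), Rps6, the classic substrate of S6 kinase (-0.34), and Rpsa, also known as the laminin receptor (-0.59), all had negative log2 fold changes and none passed. Rplp0, often used as a reference gene, stood at 944 and 814 CPM (BC), 823 and 740 (TBC), 1084 and 594 (THC), 1109 and 643 (TLC) and 854 and 744 (LC). Its lowest library, THC replicate 2, and its highest, TLC replicate 1, were both from ablated glands.

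**Figure D2:**
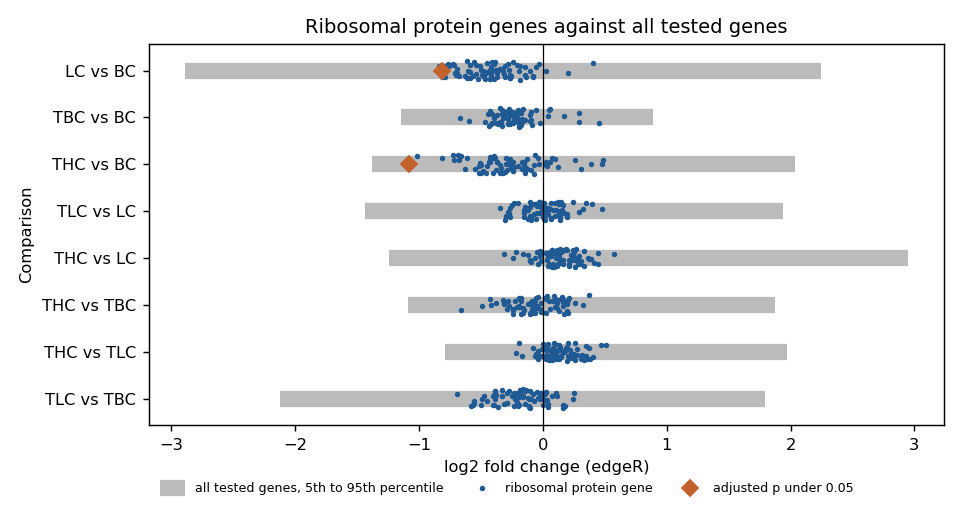
Each dot is 1 of 78 ribosomal protein genes, placed by its edgeR log2 fold change (x axis) in each of 8 comparisons (y axis), over grey bars that span the 5th to 95th percentile of all tested genes. Diamonds mark adjusted p under 0.05, which are Rps19 in LC vs BC and Rpl9 in THC vs BC; 75 of the 78 dots lie left of 0 in LC vs BC, and the dots centre on 0 in TLC vs LC.

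TBC and BC were compared to see whether basal cells differ after ablation. The members were slightly lower in TBC, with a negative log2 fold change in 71 of 78 and a median of -0.24. None was called, where 0% of all tested genes were called in this comparison by edgeR, and none reached an unadjusted p under 0.05. Both TBC libraries lay below both BC libraries in 20 of 78 genes, against 21.4% of all genes, and above them in 2, against 20%. Rps21 had the lowest p, at 133 and 117 CPM in TBC against 224 and 153 in BC (log2 fold change -0.59 ± 0.30, edgeR adjusted p 0.60). Rps19 followed (-0.46 ± 0.27, edgeR adjusted p 0.65). Without BC replicate 1, the library with the largest ribosomal share, the median of the members was -0.01.

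THC, labelled hybrid, held markers of both lineages, with basal markers summing to 5088 and 4245 CPM and luminal markers to 5386 and 4613 CPM, and were compared with BC. The median log2 fold change was -0.28, with 66 of 78 negative and a range from -1.08 to 0.49. Rpl9 was the single gene called, lower in THC, against 7.71% of all tested genes called and 2.72% called lower. It stood at 246 and 134 CPM in THC against 464 and 335 in BC, and the THC libraries did not reach the BC libraries. The log2 fold change was -1.08 ± 0.29 (edgeR adjusted p 0.046). The call was lost in 8 of 20 alternatives, among them leaving out BC replicate 1, BC replicate 2 or THC replicate 2. With a term for the library numbers, 6 members were called, all lower, and 2800 of 19757 genes. Rps21 was next, at 125 and 62.9 CPM in THC against 224 and 153 in BC (-1.02 ± 0.30, edgeR adjusted p 0.065). At an unadjusted p under 0.05 there were 7 genes, all lower, against 24.6% of all tested genes, including Rps27a (-0.82), Rps14 (-0.72), Rps3 (-0.68) and Rps12 (-0.63). Rpl5, which binds 5S RNA and the p53 inhibitor Mdm2, was another, at 487 and 295 CPM in THC against 764 and 528 in BC (-0.73 ± 0.32, edgeR adjusted p 0.19). Both THC libraries lay below both BC libraries in 15 of 78 genes, against 26% of all genes, and above them in 2, against 27.9%. Markers of other cells also differed here. All 15 endothelial markers had a positive log2 fold change in THC vs BC, with none called. Called higher were 3 of 14 fibroblast and pericyte markers and 3 of 13 immune markers, against 5% of all tested genes. Among them Notch3 (2.03) was also called higher in LC than in BC (2.87). Immune markers summed to 379 and 155 CPM in THC against 108 and 66.7 in BC. The part of these markers in the ribosomal protein values was not tested.

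In the other populations Rpl9 stood at 311 and 286 CPM (TBC), 197 and 173 CPM (TLC) and 203 and 244 CPM (LC). The libraries of TBC lay above those of THC, TLC and LC and below those of BC. It also had the lowest p in THC against TBC (log2 fold change -0.66 ± 0.29, edgeR adjusted p 0.27) and in TLC against TBC (-0.69 ± 0.29, edgeR adjusted p 0.16). Rpl9 has 9 near-identical pseudogenes, whose counts came to 1.199% of its own. Its call in THC vs BC was nevertheless lost when the pseudogene counts of all members were added. Over all members, such counts came to 11.3% of the member counts in THC replicate 1 and to between 4.37% and 7.43% in the other libraries.

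In TLC against LC, which asks the same of cells labelled luminal after ablation, the members did not lean to either side. The median log2 fold change was 0.00 (-0.38 without TLC replicate 1 and 0.25 without TLC replicate 2), with 40 positive and 38 negative, and no gene was called or reached an unadjusted p under 0.05, against 8.22% of all tested genes called. Both TLC libraries lay above both LC libraries in 1 gene, Rps19, and below them in 3, Rpl5, Rpl9 and Rps21, against 24.3% and 24.9% of all genes. The 95% interval lay within a 2-fold change for 66 of 78 members, against 31.2% of all genes. Rpl29 had the lowest p, at 169 and 90.4 CPM in TLC against 102 and 83.5 in LC (0.48 ± 0.29, edgeR adjusted p 0.39). Rps2 followed, at 436 and 268 CPM against 255 and 297 (0.35 ± 0.30, edgeR adjusted p 0.56). In both genes the 2 TLC libraries differed by more than TLC differed from LC on average. The cell cycle list rose in this comparison, with 23 of 28 genes called higher, against 4.46% of all tested genes, among them Mki67, which marks cycling cells, at 582 and 466 CPM in TLC against 28.3 and 53.4 in LC. In the same libraries the summed share of the ribosomal protein genes was 2.92% and 1.996% in TLC and 2.31% and 2.19% in LC. The cell cycle list was higher in THC too. There 27 of 28 genes were called higher than in BC, against 5% of all tested genes, and 24 higher than in LC, against 8.91%. In TBC vs BC 27 of 28 were positive, with a median of 2.92. None was called there, where 0% of all tested genes were called, so the lack of calls says nothing about the list.

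THC against LC gave a median of 0.13 with no member called, against 12.9% of all tested genes. THC against TBC gave -0.06 (0.03 with pseudogene counts added) and no call, against 3.72%. THC against TLC gave 0.11 and no call, against 1.61%, and TLC against TBC gave -0.18 and no call, against 13.6%. The signs of these medians rested on single libraries. Leaving out 1 library gave -0.32 (without THC replicate 1) to 0.48 (without THC replicate 2) for THC against LC, and -0.49 to 0.27 without the same libraries for THC against TBC. THC against TLC ran from -0.35 (without THC replicate 1) to 0.50 (without TLC replicate 1), and TLC against TBC from -0.54 (without TLC replicate 1) to 0.07 (without TLC replicate 2). Rpl29 led THC against LC, at 168 and 110 CPM in THC (0.57 ± 0.29, edgeR adjusted p 0.24), and was the 1 member with both THC libraries above both LC libraries, against 28.9% of all genes. None lay below, against 27.7%. Rpl29 has counts on 26 near-identical pseudogenes equal to 25.6% of its own. In THC against TLC the lowest p was that of Rpl30 (0.38 ± 0.33, edgeR adjusted p 0.80), at 206 and 106 CPM in THC and 151 and 88.0 in TLC. No member separated the THC from the TLC libraries, against 21.7% of all genes higher and 16.5% lower. Both THC libraries lay below both TBC libraries in Rpl9, Rpl15 and Rps27a, which is 3 of 78 against 25.5%, and above them in none, against 26.2%. Both TLC libraries lay below both TBC libraries in 11 of 78 genes, against 28.2%, and above them in none, against 26.3%.

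The difference of differences, (TLC vs LC) minus (TBC vs BC), tests whether the lineages changed unequally. It had a median of 0.23 and no member called, against 0.911% of all tested genes. The median was -0.11 without TLC replicate 1, 0.01 without BC replicate 1 and 0.52 without TLC replicate 2, so its sign rested on single libraries. Rps19 had the lowest p (0.70 ± 0.38, 95% interval -0.13 to 1.54, edgeR adjusted p 0.59). Its TBC libraries lay below BC, at 233 and 180 against 325 and 246 CPM, and its TLC libraries above LC, at 210 and 173 against 166 and 158 CPM. The same BC and LC libraries gave the LC vs BC call of Rps19. The second lowest p was that of Rpsa (0.57 ± 0.42, edgeR adjusted p 0.74). The members' intervals were wide here, and 5 of 78 lay within a 2-fold change.

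The direction of several comparisons depended on which libraries were paired. Taken within replicate 1 libraries alone, the median log2 CPM difference of LC minus BC was -0.51, with 76 of 78 negative, and within replicate 2 it was -0.33, with 71 of 78 negative. Across the 78 genes the differences in replicate 1 and in replicate 2 had r = 0.67, against 0.84 over all tested genes. THC minus BC gave medians of -0.11 and -0.52, and TBC minus BC -0.30 and -0.19. TLC minus LC changed sign, with a median of 0.23 in replicate 1 (66 of 78 positive) and -0.25 in replicate 2 (70 of 78 negative). THC minus LC did too, at 0.43 with 78 of 78 positive and -0.24 with 73 of 78 negative. THC minus TBC gave 0.17 and -0.36.

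**Figure D3:**
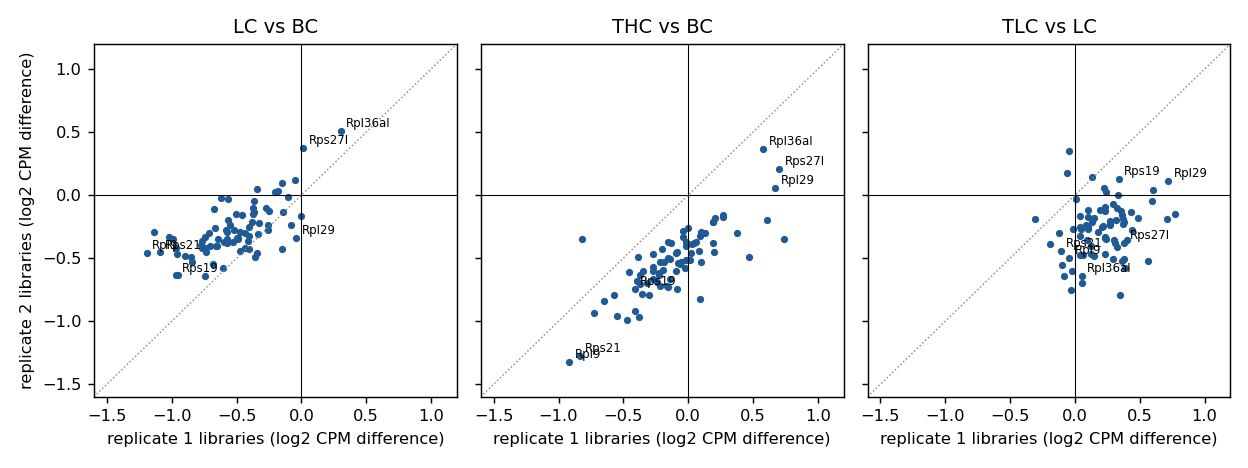
Each dot is 1 of 78 ribosomal protein genes, with the log2 CPM difference between the replicate 1 libraries on the x axis and between the replicate 2 libraries on the y axis, for LC minus BC, THC minus BC and TLC minus LC. Most dots lie in the lower left quadrant for LC minus BC, and in the lower right quadrant, positive in replicate 1 and negative in replicate 2, for TLC minus LC.

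The S44 to S48 and the S80 to S84 libraries were also compared with each other. All 78 were lower in the S80 to S84 libraries, with a median log2 fold change of -0.45 against 0.04 over all tested genes. With the populations in the same fit, edgeR called 19 of 78 lower and none higher, against 2.23% of all tested genes called and 1.66% called lower. This comparison was chosen after the data were seen. Rps29, a zinc-binding small-subunit protein, had the lowest p, at 197, 148, 191, 150 and 137 CPM in BC, TBC, THC, TLC and LC of replicate 1 and 112, 95, 92.0, 95.6 and 86.4 CPM in replicate 2 (-0.76 ± 0.11, edgeR adjusted p 0.0091). All of its replicate 1 libraries lay above all of its replicate 2 libraries. Rps27 (-0.85, edgeR adjusted p 0.014) and Rpl35a (-0.79, edgeR adjusted p 0.013) had the largest differences, and these were also the members with the largest coefficients of variation over the 10 libraries, at 41.8% and 45.3% against a median of 24.8%.

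The size of the replicate difference varied by population. The median over members of replicate 1 minus replicate 2 was 0.42 in BC, 0.29 in TBC, 0.82 in THC, 0.71 in TLC and 0.18 in LC, on the log2 CPM scale. In THC and TLC this exceeded the size of the LC vs BC median. Replicate 1 libraries were also the shallower of each population, at 2757773 to 9746963 gene counts against 9799263 to 13685674. The part of depth, handling or animals in the difference was not tested.

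**Figure D4:**
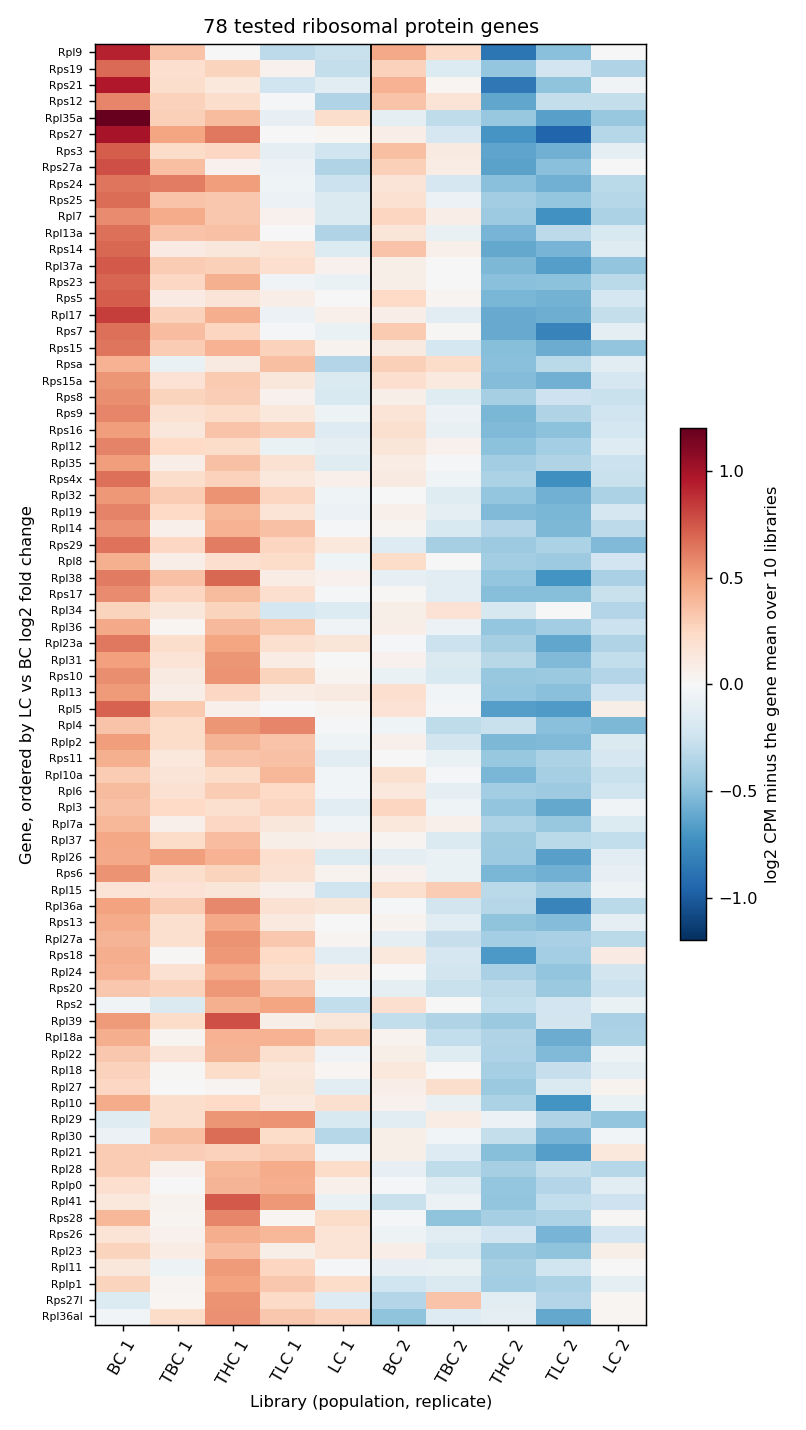
Each row is 1 of the 78 tested ribosomal protein genes, ordered from the lowest (top) to the highest log2 fold change of LC against BC, and each column a library, with replicate 1 to the left of the line and replicate 2 to the right. Colour gives log2 CPM minus the mean of the gene over 10 libraries; the left side is mostly red (higher), most of all in BC 1, and THC 2 and TLC 2 are the bluest (lower) columns.

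Paralog proportions use 2 genes of the same library and so do not depend on library scaling. Rpl36al, the autosomal copy of X-linked Rpl36a, has a coding sequence of the same 318 bases, of which 39 differ. Its counts per 100 counts of Rpl36a were 26.2 and 26.9 (BC), 35.4 and 39.2 (TBC), 36.9 and 43.6 (THC), 41.3 and 42.5 (TLC) and 41.0 and 47.7 (LC). Both BC libraries lay below every library of the other populations, and the others overlapped one another except TBC, which lay below TLC and LC. In CPM, Rpl36al stood at 57.4 and 41.8 in BC and 71.0 and 59.8 in LC (log2 fold change 0.40 ± 0.33, edgeR adjusted p 0.43), and Rpl36a at 219 and 155 in BC and 173 and 125 in LC (-0.33 ± 0.39, edgeR adjusted p 0.61).

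Rps27l, a copy of Rps27 that p53 induces, differs from it at 60 of 252 coding bases. Its counts per 100 counts of Rps27 were 7.51 and 12.5 (BC), 12.3 and 24.5 (TBC), 15.7 and 25 (THC), 19.7 and 25.4 (TLC) and 14.8 and 21.7 (LC). The higher BC library lay below every THC, TLC and LC library and just above TBC replicate 1. Replicate 2 had the larger proportion in all 5 populations. Rps27l and Rpl36al were the members in which both LC libraries lay above both BC libraries. No ratio was tested, and neither gene was called in any comparison.

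**Figure D5:**
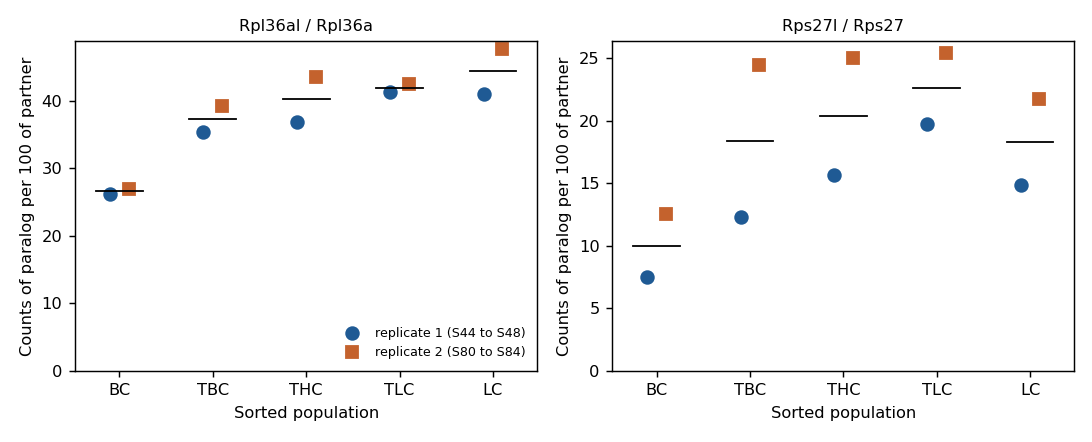
Counts of Rpl36al per 100 counts of Rpl36a (left) and of Rps27l per 100 counts of Rps27 (right) in each library, by sorted population. Circles are replicate 1, squares replicate 2 and lines the mean of 2 libraries; BC is lowest in both panels, and in the right panel replicate 2 lies above replicate 1 throughout.

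Genes around the ribosome were described from lists. Of 3 ribosomal protein paralogs that the naming rule misses, among them Rpl22l1 and Rpl7l1, none was called in any comparison, and all 3 were negative in LC vs BC, with a median of -0.22. A further list held 18 genes whose mRNAs have pyrimidine-run starts, mostly translation factors. Of these Vim, a filament gene of mesenchymal and basal cells and no translation factor, was the single call, lower in LC than in BC (-3.27), where 24% of all tested genes were called, and higher in THC than in LC (3.65), where 12.9% were. The elongation factor Eef1a1 stood at 6358 and 4619 CPM in BC and 5475 and 4007 in LC.

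Of 61 ribosome biogenesis genes, 3 were called higher and 2 lower in LC vs BC, 2 higher and 1 lower in TLC vs LC, and 2 higher in THC vs LC. Of all tested genes 11.5% and 12.5% were called higher and lower in the first of these, 4.46% and 3.77% in the second, and 8.91% and 4% in the third. The median was -0.28 in LC vs BC and 0.39 in TLC vs LC, with 52 of 61 positive in the latter, against a median of 0.00 for the ribosomal proteins. Dkc1, the pseudouridine synthase of ribosomal RNA, rose in TLC vs LC (1.13 ± 0.26, edgeR adjusted p 0.021) and in THC vs LC (1.39 ± 0.26, edgeR adjusted p 0.0057). Utp20, of the small-subunit processome, rose in TLC vs LC (0.86), and Nop58, a core protein of box C/D particles, was lower in LC than in BC (-1.12). None of the 61 was called in THC vs BC, against 7.71% of all tested genes. None was called in TBC vs BC either, but there 0% of all tested genes were called, so this says nothing about the list.

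Of 24 genes that control ribosome synthesis, 3 were higher and 3 lower in LC than in BC, against 24% of all tested genes called. By sign, 11 were positive and 13 negative. Myc stood at 677 and 637 CPM (BC), 472 and 415 (TBC), 272 and 223 (THC), 178 and 126 (TLC) and 268 and 121 (LC). It was lower in LC (-1.76 ± 0.34, edgeR adjusted p 0.0029) and in THC (-1.41 ± 0.34, edgeR adjusted p 0.029) than in BC, with no overlap between libraries. Mycn was called lower in LC than in BC too, at 10.8 and 12.6 CPM in BC and 1.08 and 0 CPM in LC, where a count of 0 allows up to 0.215 CPM. Larp1, the repressor of mRNAs with pyrimidine starts, stood at 203 and 197 CPM in BC and 398 and 331 in LC (0.86 ± 0.21, edgeR adjusted p 0.011). Deptor, an inhibitor of mTOR, rose in TLC vs LC (1.13 ± 0.27, edgeR adjusted p 0.024), at 303 and 203 CPM in TLC against 111 and 120 in LC.

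Mitochondrial ribosomal proteins, which are encoded in the nucleus and build a separate ribosome, leaned the other way. Of 78 tested genes, 52 were positive in LC vs BC, with a median of 0.19, and 73 in THC vs BC, with a median of 0.43. In TBC vs BC 74 were positive, with a median of 0.37. Their mean log2 CPM in replicates 1 and 2 was 3.53 and 3.73 in BC, 3.70 and 3.88 in LC and 4.24 and 3.90 in THC. By this mean the LC libraries overlapped with those of BC, and THC replicate 2 lay closer to BC than THC replicate 1 did. Mrpl38 and Mrpl14 were called higher in LC than in BC, which is 2 of 78 against 11.5% of all tested genes. Mrpl42 was called higher in THC than in BC, against 5%, and Mrps2 and Mrpl13 in TLC than in LC, against 4.46%. In THC vs LC 3 were called higher, Mrpl13, Mrpl42 and Mrps2, against 8.91%. The cytosolic and mitochondrial lists were not tested against each other.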

How the data were processed

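The deposited values are raw counts per gene. The authors used STAR, HTSeq and GRCm38 (mm10), per the submitters' processing notes, and versions, annotation and strand handling were not given in the sources used here. Per the labels' protocols, the RNeasy Micro kit, Ovation Solo libraries and a NovaSeq instrument were used. The HTSeq summary entries were removed. Of 49671 identifiers, 49412 matched GENCODE M21. After filterByExpr 19757 genes were tested with edgeR 4.0.16 (R 4.3.3), a robust quasi-likelihood F-test on all 10 libraries with TMM factors, 1 coefficient per population and Benjamini-Hochberg adjustment over all genes tested, called under 0.05. Precision follows from 2 libraries per population and the depth given above. Log2 CPM used a prior count of 2. Alternatives used DESeq2 1.42.0, limma 3.58.1 and other factors, filters and libraries. Pseudogenes count as near-identical at 95% identity over 80% of the coding sequence.

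Named genes were 9 anchors and the paralogs, called members, otherwise the 2 lowest p per comparison, the extremes of level per kilobase, and up to 3 called genes per list. Rps12, Rps25, Rps3, Rpl5, Rpl15, Rps29, Larp1 and Eef1a1 were named after their values were seen. Members and lists were chosen with earlier results of these data known. Promoter windows and gene starts are RefSeq's. A gene list drawn up for description is not reported here.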

Additional observations from a re-analysis of the deposited data

Results flagged for a closer look

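For Rps19 the libraries of the 2 lineages lay on opposite sides of their controls. Both TLC libraries lay above both LC libraries and both TBC libraries below both BC libraries, against 24.3% and 21.4% of all tested genes. The difference of the log2 fold changes was 0.70, the largest among the 78 members. It uses the same BC and LC libraries as the LC vs BC comparison, in which Rps19 was called lower, so it is not independent of that call. The test of that difference did not pass (95% interval -0.13 to 1.54, edgeR adjusted p 0.59), and neither did that of TBC vs BC (0.65) or TLC vs LC (0.68).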

How the results depend on the processing

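In LC vs BC the count of 1 ribosomal protein gene became 0 with RLE factors and with pseudogene counts added (chosen after the data were seen), 2 with limma-voom and with a minimum of 5 CPM in 2 libraries, 3 with upper-quartile factors and with DESeq2, 13 without a filter, and 0 to 4 when 1 library was left out. It was 0 without either BC, LC or TBC library or TLC replicate 2, and 4 without either THC library. In THC vs BC the count of 1 became 0 with pseudogene counts added or with the compared populations alone, 2 with DESeq2 and limma-voom, 5 without a filter, and 0 to 2 when 1 library was left out. It was 0 without either BC or TBC library, THC replicate 2 or TLC replicate 2, and 2 without THC replicate 1. In TLC vs TBC the count of 0 became 1 without a filter, where 3412 of 34928 genes were called. Over all genes, LC vs BC gave 5385 calls of 34928 without a filter and 4218 of 14299 with the 5 CPM minimum. Of 19757 genes it gave 4801 calls with DESeq2, 5048 with limma-voom and 4699 with upper-quartile factors. THC vs BC gave 2707 calls of 34928 without a filter, and 2225 (DESeq2) and 1484 (limma-voom) of 19757. With the set of library numbers as a replicate block, 16 genes were called lower in LC vs BC and 6 in THC vs BC. The labels do not say that the numbers pair libraries, and deviations within populations correlated at -0.01 to 0.42 over all genes and at -0.00 to 0.62 over the 78 members.

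All members called under any of these settings in LC vs BC and THC vs BC were lower. The median log2 fold change of the members ran from -0.60 to -0.21 in LC vs BC when 1 library was left out. Leaving out THC replicate 1 or 2 moved it from -0.73 to -0.00 in THC vs BC and from -0.32 to 0.48 in THC vs LC. The members' shares were also taken of the reads assigned to a gene, to no gene, ambiguously or without a unique alignment. These were 1.51% in BC, 1.48% in TBC, 1.14% in THC, 1.32% in TLC and 1.24% in LC. The cause of these shifts was not tested. Depth limits the paralogs: Rpl10l, Rpl39l and Rpl3l had too few counts for a test.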
